A study of Mus musculus with 2 samples.

Results

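To ask whether the genes that repair broken and crosslinked DNA differed between mammary basal cells grown with and without macrophages, 38 genes of homologous recombination and of the Fanconi anaemia pathway were taken by name from the count table, out of 49492 genes in all. The members were fixed as a list of symbols, and each of the 38 symbols was found once. Basal cells had been sorted from mammary glands of adult female wild-type (WT) mice and grown in a 3D matrix for 11 to 14 days, either alone (ctrl, treatment none) or together with M2-like macrophages (M2). These macrophages were made from bone marrow with Il-4 and Il-13 and were held in a transwell chamber above the gel, where they were replaced at intervals. Each group holds 1 library of RNA from whole cultures, with no replicates, and whether the basal cells of a library came from pooled mice is not given in the sources used here. A test on the reads therefore compares these 2 libraries and not the conditions.

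Homologous recombination copies the intact sister chromatid to mend a double-strand break, and it works mainly in S and G2 phase. Broken ends are first cut back to single strands, BRCA1 and BRCA2 with their partners prepare these strands for pairing with the sister, and helicases and nucleases then take apart the joined molecules. The Fanconi pathway detects crosslinks between the DNA strands at stalled replication forks, marks the site by attaching ubiquitin to FANCD2 and FANCI, and passes the lesion on to the same recombination proteins. In the mammary epithelium these genes are best known because inherited mutations of several of them raise the risk of breast cancer.

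The ctrl library held 26912610 reads in genes and the M2 library 29413844, and 19233 genes with at least 10 reads summed over both were tested. All 38 members passed this filter, and 36 of them had at least 100 reads summed. Basal markers were abundant in both libraries, with 81991 and 68968 reads of Krt14 and 56383 and 83619 reads of Krt5. The luminal keratin Krt8 had 29888 and 36348 reads, before scaling. It does not stand for the luminal markers as a whole. Over 13 luminal genes the median log2 fold difference, M2 over ctrl, was -0.78, with 3 positive and 10 negative. Of 14 macrophage markers, 7 had 0 reads in both libraries (among them Adgre1, Tyrobp and Ptprc), and the whole list summed to 276 reads in each. In such bulk RNA, fewer cells of a type and less RNA per cell cannot be told apart.

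The promoters were examined first, because genes of S phase often carry sites for E2F, a family of transcription factors that switch on replication genes. RefSeq windows (GRCm38.p6) of 300 bases, from 250 before to 50 after the gene start, were found for 31 members. The RefSeq start lay 65533 bases from the listed gene start for Fancc, 2092 for Slx4 and 949 for Fancl. Whether these windows are the promoters of the transcripts counted was not tested. They are kept below, Fancc and Slx4 among the members with a CCAAT box, and all of them among those without an E2F word. An E2F word, one of TTTGGCGC, TTTGCCGC, TTTCGCGC or TTTCCCGC on either strand, was found in 7 of 31 members (22.6%), against 2.28% of all 32534 promoters and 3.63% of the 14985 promoters of genes tested. The CCAAT box, the word bound by NF-Y, was found in 19 of 31 (61.3%), against 37.4% of all promoters and 37.2% of those of genes tested. The CHR element, TTTGAA or TTCGAA, which is known from promoters of mitosis genes, was found in 5 of 31 (16.1%), against 19.1% of all promoters and 14.1% of those of genes tested. No word in these searches contains another. The stretches around the 7 E2F words are shown because this word was several times as frequent among the members as among all promoters. They are given 5′ to 3′ on the strand that carries the word, with the word in capitals.
Bard1: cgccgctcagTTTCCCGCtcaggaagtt
Brca2: tgtgtgtctgTTTCCCGCtgtggcctaa
Rad51c: accccttgctTTTCCCGCcctcgcgggg
Fancg: ttcttttcagTTTCCCGCggaaccgtct
Chek2: gacgtcttggTTTCCCGCggctaatccc
Topbp1: gggaaccgacTTTCGCGCcaaccgagcg
Clspn: aagttcgagcTTTCGCGCccagacgcgg
The 7 stretches lie at chr1:71103164-71103191 (Bard1), chr5:150522443-150522470 (Brca2), chr11:87404942-87404969 (Rad51c), chr4:43010336-43010363 (Fancg), chr5:110839821-110839848 (Chek2), chr9:103305188-103305215 (Topbp1) and chr4:126556991-126557018 (Clspn), all on the minus strand except that of Rad51c, which is on the plus strand. Their median log2 fold difference was 0.21, against 0.26 for the 24 members without an E2F word, and they included both Clspn, at 1.15, and Rad51c, at -0.58. A word of this kind is a match of letters and not a site shown to be bound.

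The promoters of Clspn and Rad51ap1, the called members with at least 100 reads, are given whole. Capitals mark the CCAAT boxes, which lie on the other strand and so read ATTGG here, and the E2F word, which reads GCGCGAAA. That of Clspn (chr4:126556730-126557029, plus strand) holds an E2F word 22 bases into the gene and 2 CCAAT boxes before the start. That of Rad51ap1 (chr6:126939538-126939837, minus strand) holds 2 CCAAT boxes and no E2F word. That of Palb2 (chr7:122132897-122133196, minus strand), chosen after its values were seen, is shown because Dctn5 starts on the other strand 56 bases away from the listed start of Palb2.
Clspn: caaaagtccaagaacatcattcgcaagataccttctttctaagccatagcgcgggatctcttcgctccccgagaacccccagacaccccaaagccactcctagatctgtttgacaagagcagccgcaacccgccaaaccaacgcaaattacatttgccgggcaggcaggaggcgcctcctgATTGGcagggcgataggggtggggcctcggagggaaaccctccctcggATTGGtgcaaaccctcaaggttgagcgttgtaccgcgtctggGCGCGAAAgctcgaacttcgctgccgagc
Rad51ap1: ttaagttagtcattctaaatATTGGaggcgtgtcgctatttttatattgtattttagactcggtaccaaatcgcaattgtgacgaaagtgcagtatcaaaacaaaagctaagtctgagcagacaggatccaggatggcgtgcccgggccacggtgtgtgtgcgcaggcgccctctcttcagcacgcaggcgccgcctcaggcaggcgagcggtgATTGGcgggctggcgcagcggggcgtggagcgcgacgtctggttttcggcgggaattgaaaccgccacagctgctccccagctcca
Palb2: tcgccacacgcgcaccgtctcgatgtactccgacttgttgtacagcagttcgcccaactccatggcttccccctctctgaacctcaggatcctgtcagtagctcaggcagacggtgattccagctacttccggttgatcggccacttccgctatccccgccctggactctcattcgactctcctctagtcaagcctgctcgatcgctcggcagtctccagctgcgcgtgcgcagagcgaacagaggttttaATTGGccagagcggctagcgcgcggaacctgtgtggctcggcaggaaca

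The members were genes of low level. Their median was 1.36 RPKM (reads scaled by gene length and library size) in ctrl and 1.63 RPKM in M2, against 3.74 RPKM in both libraries over all genes tested. The highest were the end-processing genes Rad50 (16.6 RPKM in ctrl and 18.4 in M2), Nbn (13.2 and 14.1) and Rbbp8 (12.2 and 12.2), which held the top 3 places in both libraries. The lowest were Rad51b (0.123 and 0.351) and Palb2 (0.268 and 0.435). The order of the members was similar in both libraries, with a Spearman correlation of 0.92 over 38 genes whose points share the gene lengths. Clspn moved from place 12 in ctrl to place 5 in M2 (2.90 to 6.46 RPKM). Atr moved from 18 to 27 (1.43 to 1.22 RPKM) and Slx4 from 15 to 25 (1.65 to 1.36 RPKM). Levels there lie close together, so small differences changed many places.

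**Figure D1:**
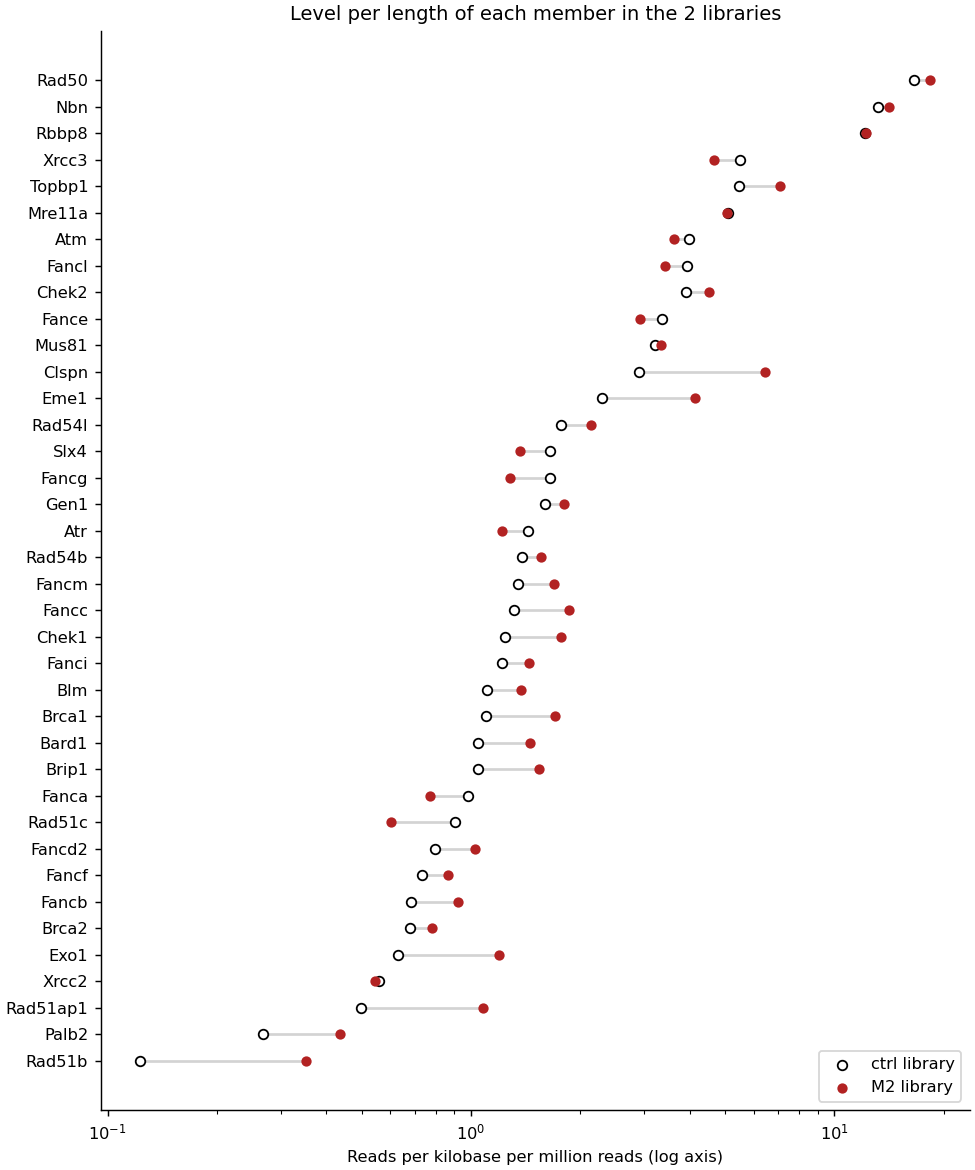
Level of each of the 38 members in RPKM (x axis, log scale), with open circles for the ctrl library and filled circles for the M2 library, ordered by the ctrl level. Rad50, Nbn and Rbbp8 lie above 12 RPKM in both libraries, and Clspn moves from 2.90 to 6.46 RPKM.

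In the whole list, 27 members had a positive and 11 a negative log2 fold difference, M2 over ctrl, and the median was 0.22, a 1.16-fold difference, against -0.0032 over all genes tested. Summed over the list, reads went from 15983 to 19199, a log2 ratio of 0.20 (95% interval 0.16 to 0.23), against 0.059 for the summed reads of all genes tested. This sum gives most weight to the members with most reads, such as Rad50 and Topbp1. A gene was called when its reads in the 2 libraries differed at an adjusted p under 0.05 in an exact binomial test and by at least 2-fold. By this rule 3 of 38 members (7.89%) were called higher in M2, namely Clspn, Rad51ap1 and Rad51b, against 8.16% of all genes tested, and 0 were called lower, against 6.55%. Among the 36 members with at least 100 reads, 2 were called higher (5.56%), against 6.45% of all such genes, and 0 lower, against 4.64%. The number of members that at least doubled was thus near the background. At any fold, 17 members (44.7%) passed the adjusted p in the positive direction, against 27.0% of all genes tested, and 6 (15.8%) in the negative direction, against 26.1%, and 15 did not pass it. Shares at any fold depend on depth. Of the 14148 genes with at least 100 reads, 4473 passed it in the positive and 4344 in the negative direction, a higher background than that of all genes tested. At a 1.5-fold threshold 7 members (18.4%) were called higher, against 12.8% of all genes tested, and 0 lower, against 11.1%. Most of the members' differences were small, with 31 of 38 within 1.5-fold. Whether these shares depart from the background was not tested, and they rest on few genes. The 36 deeper members were not set against the deeper background at any fold. With a biological coefficient of variation of 0.2 between cultures assumed in edgeR's exactTest, 0 members passed both thresholds, against 5.01% of all genes tested called higher and 3.59% called lower. With 0.1, Clspn and Rad51ap1 were called higher and 0 members lower, against 7.31% and 5.62% of all genes tested. All intervals given here cover counting error only.

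**Figure D2:**
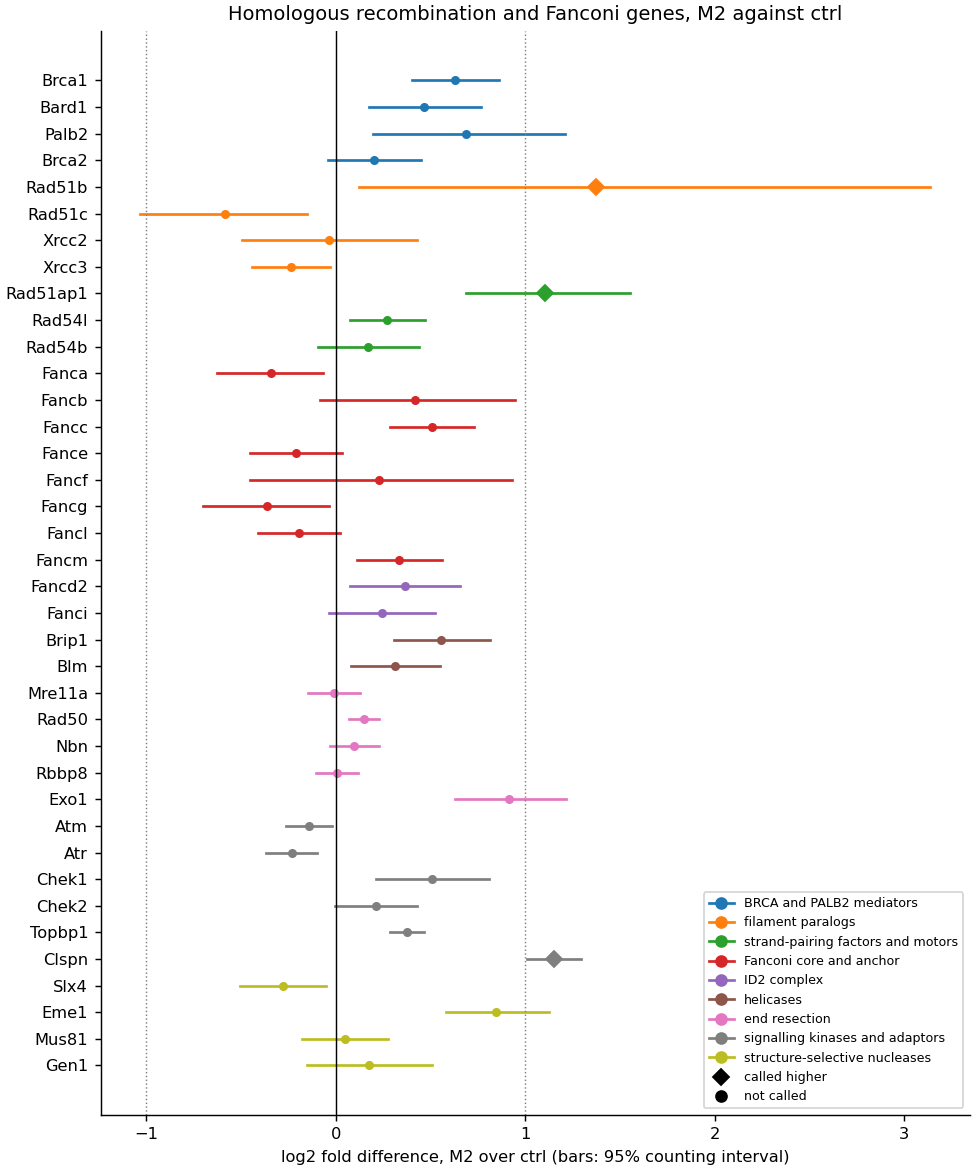
Log2 fold difference of each member, M2 over ctrl (x axis), with 95% counting intervals as bars, colours for the role of the gene and diamonds for the called genes; dotted lines mark 2-fold. Clspn, Rad51ap1 and Rad51b lie beyond the right dotted line and none beyond the left one.

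Among the signalling genes 4 of 6 values were positive, against 9562 of 19233 over all genes tested, and the median was 0.29. Of these 6 genes, 1 was called higher, against 8.16% of all genes tested, and 0 lower, against 6.55%. ATR is the kinase that senses single-stranded DNA at stalled forks, TOPBP1 activates it, and claspin, the product of Clspn, carries the signal to the kinase CHK1. Clspn (chromosome 4, 126556935 to 126593903 in GRCm38, the build of all gene positions given) rose: it had 573 reads in the ctrl library against 1337 with macrophages, and the log2 fold difference was 1.15 (95% interval 1.01 to 1.30). Topbp1 had 1686 and 2297 reads, a difference of 0.38 (0.29 to 0.47), and Chek1, the gene of CHK1, had 158 and 236 reads, a difference of 0.51 (0.21 to 0.81). Both lay above ctrl beyond their counting intervals, at less than 2-fold. Atr itself had 929 and 829 reads, a difference of -0.23 (-0.37 to -0.10). The parallel kinase Atm, which answers to double-strand breaks, had 1132 and 1076 reads, a difference of -0.14 (-0.26 to -0.02), and its target Chek2 had 322 and 391 reads, a difference of 0.21 (-0.0056 to 0.43). Both upstream kinases were thus slightly lower in the M2 library, and Clspn, Topbp1 and Chek1 were higher. The kinase values depend on gene length. With the trend over gene length removed, Atr differed by -0.087 and Atm by -0.076, and Clspn, Topbp1 and Chek1 by 1.20, 0.45 and 0.52.

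Among the genes of strand pairing, the accessory factor Rad51ap1 (chromosome 6, 126923050 to 126939587), which stimulates this step, was also higher in M2. It had 66 reads in ctrl against 150 in M2, a difference of 1.10 (0.69 to 1.56). The DNA motor Rad54l had 375 and 475 reads (0.27, interval 0.07 to 0.47). Lrrc41 (883 and 1149 reads, 0.31) overlaps 15.4% of the length of Rad54l on the opposite strand, and its part in the value of Rad54l was not tested. The related Rad54b had 219 and 259 reads (0.17, interval -0.09 to 0.44). Rad54b shares 35.8% of its length with Fsbp on the same strand, so its reads are uncertain. The paralogs Rad51b, Rad51c, Xrcc2 and Xrcc3, which help to form and steady the protein filament on single strands, went different ways. Rad51b had only 6 and 18 reads, with a difference of 1.37 (0.12 to 3.14) and, by the exact binomial test, an adjusted p of 0.0448, so its call rests on few reads. Rad51c went the other way, with 109 and 76 reads and a difference of -0.58 (-1.03 to -0.15), the lowest of the members, and Xrcc3 had 415 and 370 reads (-0.23, interval -0.44 to -0.03). Xrcc2, with 80 and 82 reads, differed by -0.034 (-0.50 to 0.43). Rad51c and Xrcc3, whose products form one complex, were therefore both lower in M2 by less than 2-fold.

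The BRCA and PALB2 mediators had 4 of 4 positive values, against 9562 of 19233 over all genes tested, with a median of 0.55. Brca1 (chromosome 11, 101488764 to 101551955), a ubiquitin ligase when joined to BARD1, had 257 and 418 reads and differed by 0.63 (0.40 to 0.86). Bard1 had 163 and 237 reads, a difference of 0.47 (0.18 to 0.77). Palb2, which bridges BRCA1 and BRCA2, had 54 and 92 reads, a difference of 0.69 (0.20 to 1.21). Brca2, which acts on the resected strand, had 254 and 307 reads and a difference of 0.20 (-0.04 to 0.45) whose interval includes 0. None of these genes reached 2-fold.

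Of the end resection genes, 4 differed little and 1 more. The complex of Mre11a, Rad50 and Nbn makes the first cut near the end and tethers it. Mre11a had 830 and 865 reads (-0.0097, interval -0.15 to 0.13), Rad50 had 2444 and 2843 reads (0.15, interval 0.07 to 0.23) and Nbn had 918 and 1031 reads (0.10, interval -0.03 to 0.23). Rbbp8 (chromosome 18, 11633276 to 11743207), whose product CtIP switches on that cut, had 1293 and 1364 reads (0.0079, interval -0.10 to 0.12). No interval of these 4 genes reached beyond 0.23 on the log2 scale. Exo1 (chromosome 1, 175880581 to 175913489), the exonuclease of long-range resection, had 146 and 290 reads and a difference of 0.92 (0.63 to 1.22) that passed the adjusted p but not the 2-fold threshold.

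The Fanconi core complex, the ubiquitin ligase of the pathway, and its anchor FANCM were mixed, with 4 positive and 4 negative values and a median of 0.017. Fancc (284 and 424 reads) and Fancm (287 and 380 reads), the translocase that lands on the crosslink, were higher in M2 by 0.51 (0.29 to 0.73) and 0.33 (0.11 to 0.56). The core genes Fanca (236 and 195 reads) and Fancg (172 and 140 reads), whose products bind each other, were lower by similar amounts, with differences of -0.34 (-0.63 to -0.06) and -0.36 (-0.70 to -0.04), and Fancg did not pass the adjusted p. The ligase gene Fancl (363 and 333 reads), Fance (294 and 267), Fancb (56 and 79) and Fancf (34 and 42) had values from -0.21 to 0.42 with intervals that include 0. The pair that the complex marks with ubiquitin was a little higher, Fancd2 (173 and 234 reads) by 0.36 (0.08 to 0.66) and Fanci (193 and 240 reads) by 0.24 (-0.03 to 0.53). On the opposite strand, Polg overlaps 16.0% of the length of Fanci, Gas2 15.0% of that of Fancf, Vrk2 13.7% of that of Fancl and Zfp276 10.5% of that of Fanca, and reads of these stretches could belong to either gene, since no source says whether counting used strand.

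Of the helicases, Brip1 (214 and 331 reads), the partner of BRCA1, differed by 0.56 (0.31 to 0.81), and Blm (267 and 348 reads), which dissolves joined molecules, had 0.31 (0.08 to 0.55). The nucleases that cut such molecules were uneven. Eme1 (chromosome 11, 94644996 to 94653964), the partner subunit of MUS81, had 174 and 329 reads, a difference of 0.85 (0.58 to 1.12), while Mus81, the catalytic subunit, had 315 and 342 reads and a difference of 0.049 (-0.18 to 0.27). Eme1 shares 221 exon bases with Lrrc59 on the opposite strand, a gene with 3044 and 5343 reads and a difference of 0.74, whose part in the value of Eme1 was not tested. Slx4, the scaffold that holds the nucleases, had 348 and 301 reads (-0.28, interval -0.51 to -0.05), and Gen1, a resolvase that works alone, had 144 and 171 reads (0.18, interval -0.15 to 0.51).

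Ratios of genes whose products work together do not depend on how the libraries are scaled, and 14 such ratios were compared, chosen with these values known. Which gene stands first was part of that choice, so the signs are a description only. The interval of the log2 change included 0 in 8 of the 14 pairs. The ratio of Exo1 to Rbbp8 changed by 0.91 (0.60 to 1.23), Eme1 to Mus81 by 0.80 (0.45 to 1.16), Clspn to Topbp1 by 0.78 (0.61 to 0.95), Chek1 to Atr by 0.74 (0.41 to 1.07) and Chek2 to Atm by 0.35 (0.10 to 0.60). Per length, Clspn stood at 0.531 of the level of Topbp1 in ctrl and at 0.909 in M2, and Eme1 at 0.713 of the level of Mus81 in ctrl and at 1.24 in M2. Fancl to Fancb changed by -0.62 (-1.19 to -0.06). The obligate pair Brca1 and Bard1 had ratios per length of 1.05 (ctrl) and 1.17 (M2), which is a log2 change of 0.16 (-0.22 to 0.54), and Fancd2 to Fanci changed by 0.12 (-0.29 to 0.53). Such intervals do not show equal ratios.

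**Figure D3:**
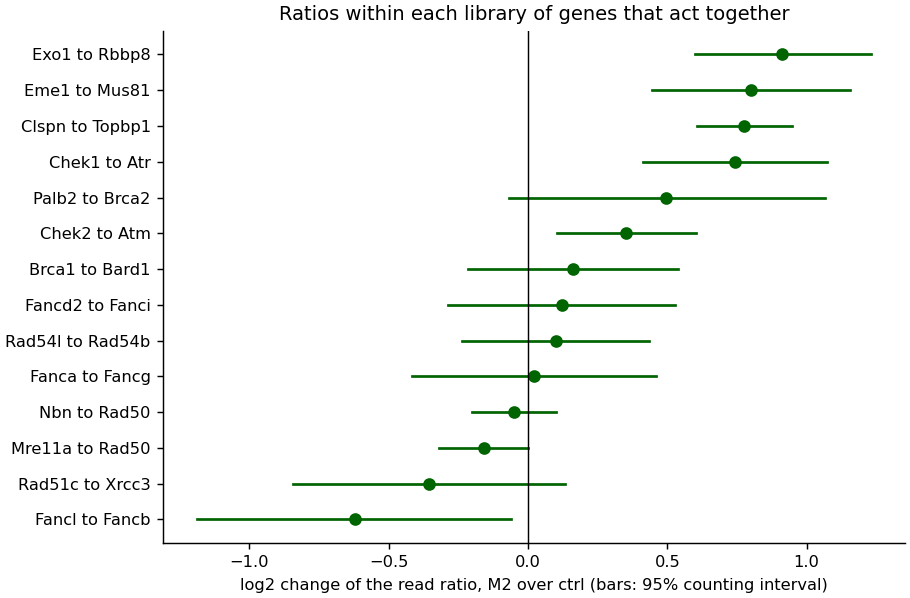
Log2 change, M2 over ctrl, of the ratio of reads between 14 pairs of members that act together (x axis), with 95% counting intervals as bars. The pairs led by Exo1, Eme1, Clspn, Chek1 and Chek2 lie above 0, and Fancl to Fancb lies below.

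Many of the members start beside another gene on the opposite strand. For 17 members such a start lay within 1000 bases, and 15 of the 17 neighbours were protein-coding. None of the 17 neighbours was called in either direction, against 8.16% of all genes tested called higher and 6.55% called lower. With so few neighbours, a count of 0 is near that background. Of the 13 neighbours with at least 100 reads summed, the differences ran from -0.38 to 0.13 with a median of 0.046, while the median of the 13 members beside them was 0.36. The counting intervals were apart in 5 of these 13 pairs, and in each of the 5 the member was the higher one. How often this holds for other neighbouring genes was not tested. Brca1, at 0.63, starts 194 bases from Nbr1 (5874 and 4745 reads), an autophagy receptor gene with a difference of -0.38 (-0.43 to -0.32). Rad51ap1 starts 375 bases from D6Wsu163e (274 and 266 reads), at -0.11. Eme1 starts 197 bases from the mitochondrial ribosome gene Mrpl27 (562 and 609 reads), at 0.046. These 2 genes overlap and share 75 exon bases on opposite strands. Rad54l lies beside Pomgnt1 (933 and 866 reads), at -0.18, and Brip1 beside its antisense gene Brip1os (1552 and 1689 reads), at 0.053.

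The other neighbours gave intervals that overlapped those of the members. Such overlap does not show equal values, and the differences within pairs were not tested. Palb2 (0.69) lay beside Dctn5 (827 and 915 reads, 0.08), and Fancd2 (0.36) beside Emc3 (1711 and 1771 reads, -0.020). Chek2 (0.21) lay beside Hscb (193 and 217 reads, 0.10), and Fancb (0.42) beside Mospd2 (639 and 712 reads, 0.09). Xrcc3 (-0.23) had a lower value than Zfyve21 (166 and 168 reads, -0.052). Atm (-0.14) likewise had a lower value than the histone gene activator Npat (656 and 718 reads, 0.06). Gen1 (0.18) lay beside the cohesin-related Smc6 (3699 and 4249 reads, 0.13), and Mre11a (-0.0097) beside Ankrd49 (335 and 322 reads, -0.13). Tex14 beside Rad51c (9 and 8 reads), Gas2 beside Fancf (41 and 39), 1300017J02Rik beside Topbp1 (13 and 21) and 1700065D16Rik beside Atr (7 and 5) had too few reads for a comparison.

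**Figure D4:**
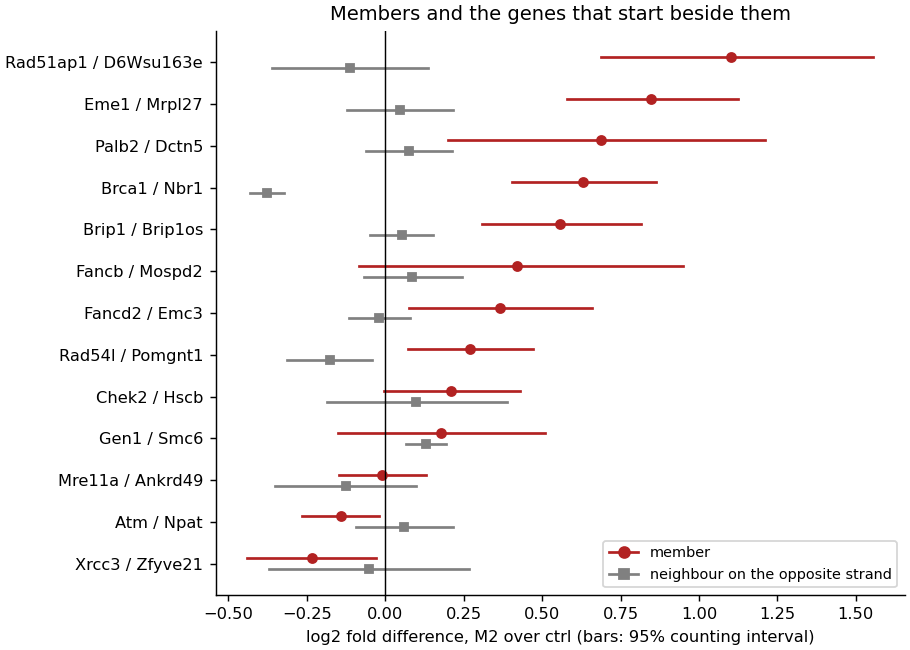
Log2 fold difference, M2 over ctrl (x axis), of 13 members (circles) and of the genes that start within 1000 bases on the opposite strand and have at least 100 reads (squares), with 95% counting intervals. The neighbours lie between -0.38 and 0.13, and Rad51ap1, Eme1, Brca1, Brip1 and Rad54l lie clear of theirs.

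Other genes of the same pathways and other forms of repair were set beside the members. Of 56 further homologous recombination and Fanconi genes, 55 were tested (Hrob was not found by that name), 1 was called higher and 0 lower, and the median was 0.039. Over all genes tested, 8.16% were called higher and 6.55% lower. The called gene was Fignl1, with 80 and 175 reads and a difference of 1.05 (0.67 to 1.46). Polq, the polymerase of a backup pathway, named here with its values already known, had 106 and 200 reads (0.84, interval 0.50 to 1.20). Non-homologous end joining, which rejoins ends without a template and is used throughout the cycle, had a median of -0.11 over 16 genes, with 5 positive and 11 negative. Mismatch repair (7 genes), base excision repair (18) and nucleotide excision repair (20) had medians of 0.13, -0.021 and 0.09, and none of their genes was called in either direction. Among 30 genes of S phase replication the median was 0.36, and 27 were positive and 0 called. In the mitosis list 26 of 28 genes were called higher and 0 lower, with a median of 1.28. Mki67 (2656 and 6713 reads) and Top2a (2389 and 6118 reads) were the most abundant of these, with differences of 1.27 and 1.29. The members' median of 0.22 lay between those of mismatch repair and of S phase replication. The part of the mitosis genes' difference in the members' values was not tested.

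**Figure D5:**
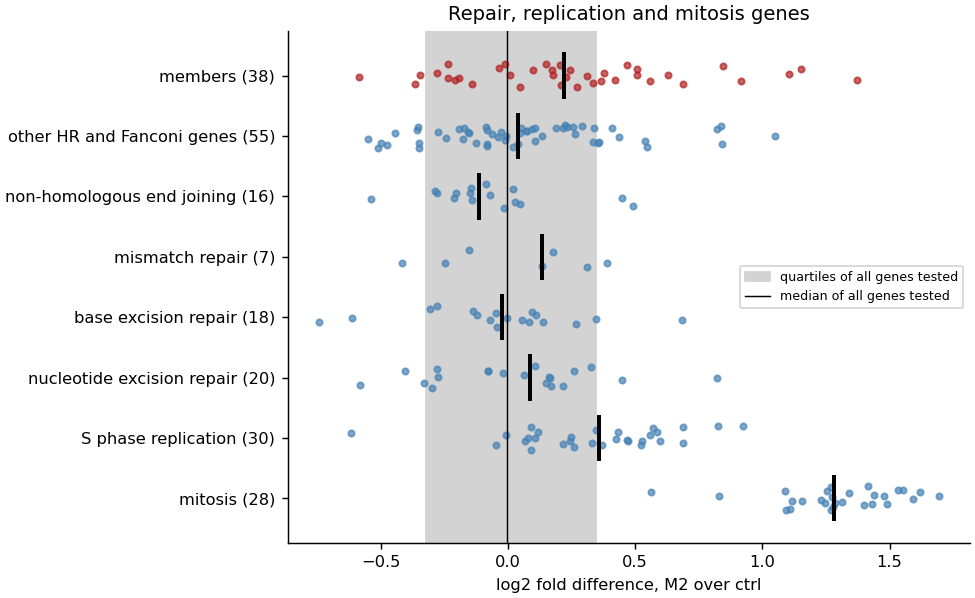
Log2 fold difference, M2 over ctrl (x axis), of each tested gene in the member list and 7 other lists, with the number of genes in brackets, a black bar at each median, and the quartiles and median of all genes tested in grey and as a line. The members have a median of 0.22 and the mitosis genes a median of 1.28.

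Markers of cell types also differed between the libraries. Over all genes tested, 8.16% were called higher and 6.55% lower. Of 13 luminal genes 6 were called lower and 0 higher, with Pgr, Kit and Esr1 among those lower. The luminal median was -0.78, with 3 positive and 10 negative values and a lowest value of -2.54. The most abundant luminal genes, Aldh1a3, Krt8, Epcam and Krt18, differed by 0.31, 0.21, 0.06 and -0.046. Of 10 basal genes 1 was called in each direction, and the most abundant ones, Krt14, Krt5, Itgb1 and Myh11, differed by -0.32, 0.50, 0.66 and -0.06. Of 10 fibroblast genes 4 were called lower and 1 higher, with Postn (72824 and 71795 reads) and Fn1 (31707 and 59215 reads) at -0.09 and 0.83 and Col6a3 and Col1a2 at -4.24 and -1.68. Of the macrophage list, Cd68 (170 and 165 reads) and Csf1r (94 and 92 reads) held most reads, followed by Itgam (3 and 9) and Ctss (5 and 2), and 0 were called. The part of these shifts in the members' values was not tested.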

How the data were processed

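RNA of 1 ctrl and 1 M2 culture was sequenced on a HiSeq X sequencer per the study's methods, from libraries made with a SMARTER mRNA kit per the labels. The deposited table gives whole-number counts of reads for every gene, without normalization, beside its exon length. The labels name GRCm38 and mm10 as builds. The aligner, counter, annotation and use of strand are not given in the sources used here. All 38 members overlap the gene of the same name in GENCODE M21 (GRCm38), and 32 have the same ends.

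Members, lists and the rule for naming genes (all 38 members, called members of the related lists, the most abundant cell type markers and all opposite-strand neighbours) were chosen with earlier results of these data known. Genes with at least 10 reads summed over both libraries were scaled by the trimmed mean of M values (TMM) of edgeR 4.0.16 under R 4.3.3, with factors of 1.02 (ctrl) and 0.980 (M2). Log2 fold differences use a pseudocount of 1 read. The two-sided exact binomial test was adjusted by the Benjamini-Hochberg method over 19233 genes. Intervals of differences are Clopper-Pearson at 95%, those of ratios conditional exact. Without molecular identifiers they cover counting error only. The floor was set at 3 reads, which are 0.109 CPM in ctrl and 0.104 in M2. RefSeq promoter windows were not found for Xrcc2, Rad54b, Fancd2, Rad50, Nbn, Rbbp8 and Exo1. A gene of the related list is not reported here by name. The functions were tested on simulated data. Alternatives covered scaling, pseudocount, filter, fold threshold, gene length and assumed coefficients of variation.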

Additional observations from a re-analysis of the deposited data

How the results depend on the processing

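The median of the members ran from 0.16 (library totals alone) to 0.24 (length trend removed) over 9 alternatives of scaling, pseudocount, filter and length. Under these, 35 members kept their sign, and Mre11a, Rbbp8 and Mus81, whose intervals include 0, did not. Of the called members only Rad51b lost its call, with library totals (1.31), a pseudocount of 5 (0.99) and no filter beyond 1 read (1.37), and it was not tested with at least 1 CPM in both libraries. Clspn and Rad51ap1 kept theirs. The number of members called higher was 7 at 1.5-fold, 0 at 4-fold, and 0 when edgeR's exactTest was given a coefficient of variation of 0.2 or 0.4, so it rests on a spread that 1 library per group cannot give. Over all genes, 1570 higher and 1260 lower became 797 and 583 with at least 1 CPM in both libraries, 2462 and 2143 at 1.5-fold, 616 and 494 at 4-fold, 964 and 691 at 0.2, and 175 and 130 at 0.4. Depth limits Rad51b, with 24 reads summed, and Fancf, with 76, most. No paired analysis was possible because there is 1 library in each group.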
